A study of Mus musculus with 38 samples.

Results

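The genes described here are 34 markers of macrophages, chosen by name and read in all 4 count tables of a mouse study of 38 samples. All 34 were found, among 55487 genes in the culture and brain tables and 57126 genes in the tumour and miRNA tables. They fall into 24 genes that most macrophages share, 7 genes enriched in microglia and 3 genes of border and tissue macrophages.

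Macrophages are phagocytes that most tissues hold as residents and that also arise from blood monocytes. Their identity depends on the transcription factor PU.1, encoded by Spi1, and on signalling by the receptor of colony stimulating factor 1, encoded by Csf1r. Microglia are the macrophages of the brain tissue itself and carry genes such as P2ry12, Tmem119 and Sall1, whereas macrophages at the borders of the brain and in many other organs carry Mrc1 and Cd163. In mammary tumours macrophages are a common host cell.

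The study worked with 4T1, an established mouse cell line that the labels call a mammary adenocarcinoma and use as a model of triple negative breast cancer (TNBC), and every sample is labelled with this line. The culture experiment had 3 libraries from untreated 4T1 cells (control), and for 72 h another 3 cultures received exosomes of insulin sensitive (IS) 3T3-L1 adipocytes and 3 received those of adipocytes made insulin resistant (IR). The brain clonogenic assay had 5 control, 5 IS and 5 IR libraries, and the primary tumours gave 4 control and 5 IR libraries. A further culture experiment had 2 libraries titled as scrambled miRNA and 3 titled as miR-145a-3p, but their library names carry the opposite names, so these groups are referred to by title only. No source used here gives the mice's strain, sex and age, the site of injection or the steps of the clonogenic assay. Titles speak of biological replicates but name no culture or animal, so a p-value covers the spread among these libraries alone, which may partly be technical.

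Levels are in CPM, counts scaled to library size within each table, and are not corrected for gene length, so they are compared between samples and not between genes. Culture libraries held 8455412 to 12785398 counts and brain libraries 8790616 to 13272583, while tumour libraries were deeper at 17392887 to 21909370 and the miRNA libraries deepest at 24972592 to 32637552. The label of a 4T1 cell was checked with 6 epithelial genes of this line, whose summed level was 3551 to 3569 CPM in untreated cultures, 3038 to 6436 CPM in tumours and 116 to 250.1 CPM in the brain libraries. Xist, which female cells transcribe from their silent X chromosome, reached at most 0.0895 CPM in the cultures, 66.6 to 165 CPM in the tumours and 276 to 660 CPM in the brain libraries. In bulk RNA such as this, fewer cells of a type and less RNA per cell cannot be told apart.

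The promoters of the members were read for the core of the PU.1 motif, GAGGAA, on both strands (TTCCTC on the other). Spi1, which encodes PU.1, is itself a member. The windows were the 250 bases before each start site in the RefSeq promoter table of GRCm38.p6, which held 25 of the 34 members. The motif was present in 15 of 31 member windows (48.4%), belonging to 13 members, against 7639 of 32851 windows of all genes (23.3%). Of the 12 members with a window that were called lower in brain IR, 8 held the motif and 4 (Cybb, Fcer1g, Ly86 and Ms4a7) did not, and of the other 13 members with a window 5 held it. C1qc, Ly86 and Ms4a7 are among the 12 but passed the filter through control and IS libraries, where they were higher, so their calls support nothing. A match describes the letters only, and the members were chosen by name as macrophage markers. No test was made of motif and fall, and a part of PU.1 in the fall was not tested. The 5 windows below include Itgam, Trem2 and Mrc1, which were called lower in brain IR and hold the motif. Also shown are C1qc, which holds it but whose call supports nothing, and Cd163, near 0 in the brain, which lacks it. Aif1 and C1qb, also near 0 there, hold it and are not shown. The 4 members called lower without the motif are not shown either. Capitals mark the motif. They are chr7:128062390-128062639 on the plus strand for Itgam, chr4:136892915-136893164 on the minus strand for C1qc, chr17:48346151-48346400 on the plus strand for Trem2, chr2:14229164-14229413 on the plus strand for Mrc1 and chr6:124304401-124304650 on the plus strand for Cd163.
Itgam: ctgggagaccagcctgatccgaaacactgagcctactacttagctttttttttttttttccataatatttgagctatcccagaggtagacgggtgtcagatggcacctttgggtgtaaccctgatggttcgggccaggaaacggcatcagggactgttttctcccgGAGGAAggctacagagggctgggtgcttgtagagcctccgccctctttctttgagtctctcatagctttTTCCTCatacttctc
C1qc: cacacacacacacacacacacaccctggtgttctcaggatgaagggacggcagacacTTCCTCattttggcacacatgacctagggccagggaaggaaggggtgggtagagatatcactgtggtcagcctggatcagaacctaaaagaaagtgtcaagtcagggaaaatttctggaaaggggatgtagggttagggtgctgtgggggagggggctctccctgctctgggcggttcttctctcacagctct
Trem2: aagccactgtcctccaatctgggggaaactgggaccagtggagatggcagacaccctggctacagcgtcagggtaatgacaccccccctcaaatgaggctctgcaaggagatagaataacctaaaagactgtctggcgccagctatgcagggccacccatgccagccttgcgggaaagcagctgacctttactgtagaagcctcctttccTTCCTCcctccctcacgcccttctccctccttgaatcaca
Mrc1: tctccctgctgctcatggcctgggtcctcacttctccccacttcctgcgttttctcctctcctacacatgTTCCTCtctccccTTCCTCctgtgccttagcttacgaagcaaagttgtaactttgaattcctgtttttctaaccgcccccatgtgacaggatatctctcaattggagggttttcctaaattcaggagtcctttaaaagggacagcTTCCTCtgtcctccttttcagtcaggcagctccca
Cd163: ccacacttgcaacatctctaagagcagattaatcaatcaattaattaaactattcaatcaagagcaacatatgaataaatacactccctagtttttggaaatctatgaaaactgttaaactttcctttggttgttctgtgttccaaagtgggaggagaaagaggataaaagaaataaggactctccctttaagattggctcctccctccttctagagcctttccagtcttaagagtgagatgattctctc

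In the plot of all members by experiment, the 4T1 cultures were nearly free of macrophage transcripts while brain libraries and tumours were rich in them. The summed level of the 34 members was 24.4 to 31.4 CPM in the 9 cultures, 644 to 5159 CPM in the 15 brain libraries and 4203 to 6197 CPM in the tumour controls. Only Lat2, Csf1r, Cd68 and Cd14 passed the filter of 3 CPM in 3 libraries in the cultures. Csf1r was at 7.89 to 11.8 CPM, Cd14, the coreceptor for bacterial lipopolysaccharide, at 7.16 to 10.4 CPM, and Tyrobp, Lyz2 and the 3 C1q chains at or near 0.

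**Figure D1:**
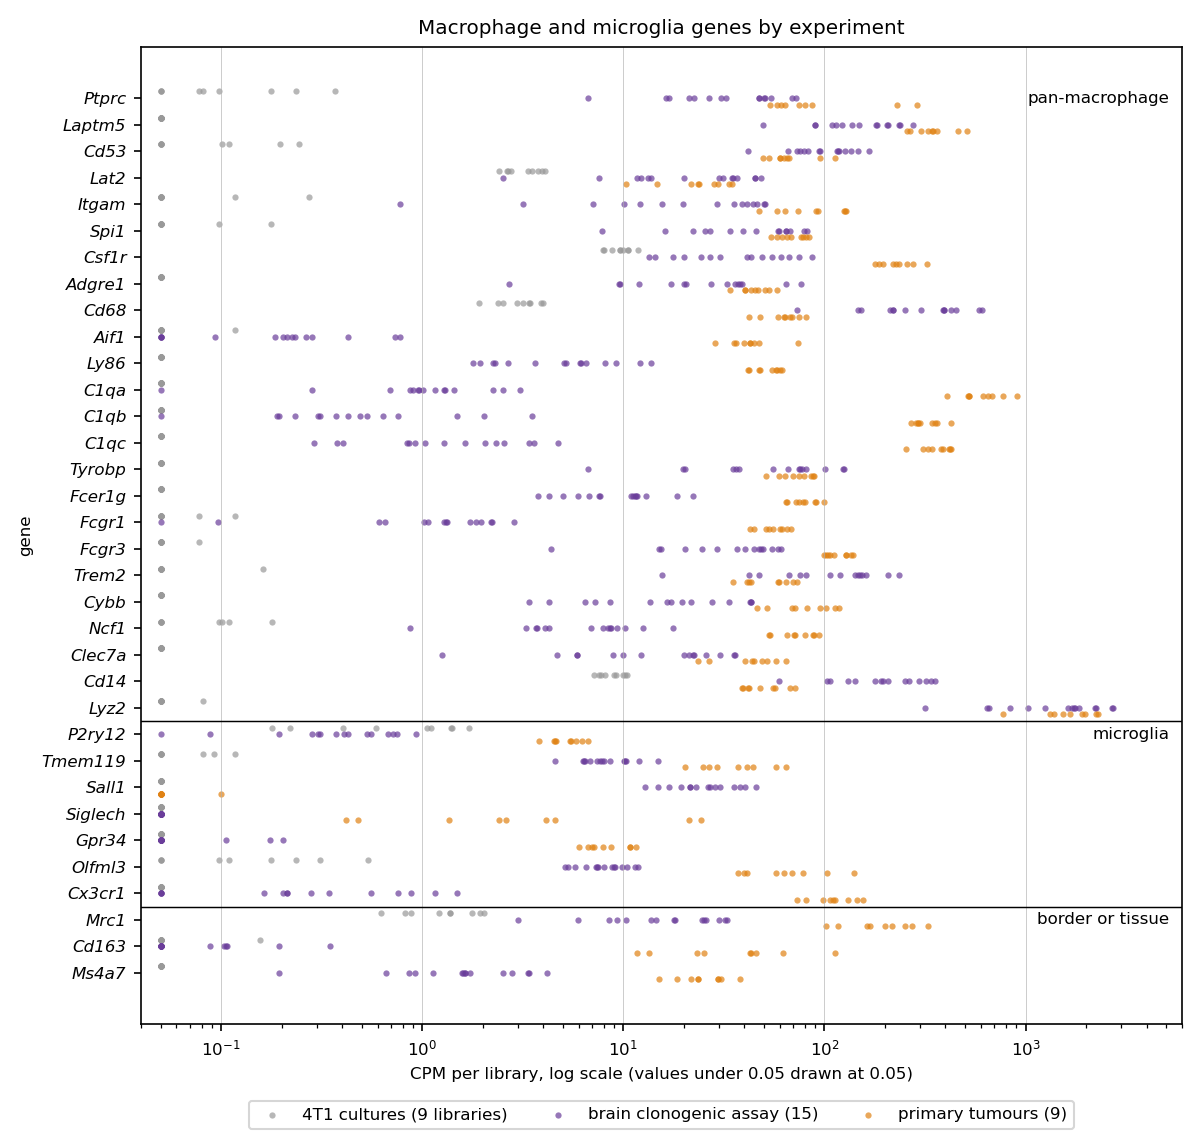
Level of each of the 34 genes in every library of the cultures (grey, 9 libraries), the brain clonogenic assay (purple, 15) and the primary tumours (orange, 9), in CPM on a log axis, with values under 0.05 CPM drawn at 0.05. Points of C1qa, C1qb and C1qc in tumours lie to the right of all brain points, and Sall1 is the gene whose brain points all lie to the right of the tumour points.

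The brain and tumour tables were counted with different programs and scaled separately, so their levels are set side by side here with no test. In all libraries, 20 of the 34 members were higher in every tumour than in any brain library, 1 was higher in every brain library and 13 overlapped. Over the 14354 genes listed in both tables and past the filter in either, 28.2% were higher in every tumour and 25.3% in every brain library. All 13 that overlapped were shared macrophage genes. Of the 7 microglia genes, 6 were higher in the tumours and 1, Sall1, in the brain, and all 3 border or tissue genes were higher in the tumours.

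Among lineage genes, Spi1 stood at 59.2 ± 8.30 CPM (SD, n = 5) in brain controls and 72.5 ± 9.64 CPM (SD, n = 4) in tumour controls, and these libraries overlapped. Csf1r stood at 58.8 ± 16.9 CPM in brain controls and 227 ± 37.5 CPM in tumour controls, 3.86-fold higher in the tumours without overlap. The adaptor Tyrobp, which passes on the signal of Trem2 and related receptors, was at 79.98 ± 12.8 CPM in brain controls and 75.2 ± 10.4 CPM in tumour controls, again with overlap. Lyz2, the lysozyme of myeloid cells, was at 1940.0 ± 546 CPM and 1742 ± 710.2 CPM, with overlap.

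The largest gap among the shared genes was in complement. C1qa, C1qb and C1qc encode the 3 chains of C1q, the recognition unit of the classical complement pathway, and macrophages are their main source in most tissues. C1qa was at 1.49 ± 1.19 CPM in brain controls and 656.5 ± 103 CPM in tumour controls, a 441-fold difference. C1qb was at 1.31 ± 1.45 CPM and 321 ± 38.8 CPM (246-fold, or 427-fold without brain control 5), and C1qc at 2.64 ± 1.57 CPM and 387 ± 44.8 CPM (147-fold). Across all libraries C1qa was at most 3.08 CPM in the brain and at least 406 CPM in the tumours. The 3 chains stood near the floor in the same brain libraries whose Spi1 and Tyrobp overlapped with the tumours.

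Aif1, the calcium-binding protein stained as IBA1 in microglia and macrophages, was also near the floor in the brain. Its 15 brain values were 0 to 0.776 CPM and its 9 tumour values 28.5 to 74.2 CPM. Fcgr1, a high-affinity receptor for antibodies, was 34.6-fold higher in tumour than in brain controls. Its common chain Fcer1g was 7.08-fold higher, Ly86, a partner of a Toll-like receptor relative, 7.63-fold higher, and Ncf1, a cytosolic subunit of the phagocyte oxidase, 8.18-fold higher.

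The order was the opposite for Cd68, Trem2 and Cd14 when only controls were compared. Cd68, a glycoprotein of macrophage lysosomes, was at 380.3 ± 46.4 CPM in brain controls and 66.4 ± 6.89 CPM in tumour controls (5.73-fold). Cd14 was at 257 ± 61.5 CPM and 48.6 ± 9.13 CPM (5.30-fold), and Trem2, a lipid-sensing receptor, at 145 ± 15.5 CPM and 58.7 ± 12.1 CPM (2.46-fold). Brain IR libraries overlapped with tumours for all 3 genes. With controls alone, 23 members were higher in tumours, 4 in brain and 7 overlapped, where 39.8% of the same genes were higher in all tumour controls and 36.8% in all brain controls.

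Of the microglia genes, Sall1 alone marked the brain libraries. Sall1 is a zinc finger factor that maintains microglial identity and also acts in the development of kidney and limb. It measured 12.9 to 45.6 CPM across all 15 brain libraries, and stood at 0 in 8 of the 9 tumours and at 0.100 CPM in the last. The other microglia genes did not follow it. Siglech was at 0 in all 15 brain libraries, and Gpr34, a lysophosphatidylserine receptor, reached at most 0.203 CPM there. Cx3cr1, the receptor of fractalkine, was at 0 to 1.49 CPM in the brain and 72.9 to 155 CPM in tumours, and P2ry12, the purine receptor that steers microglial processes, at 0 to 0.931 CPM and 3.83 to 6.68 CPM. These 4 markers, which define resting microglia, were at or near 0 in the brain clonogenic libraries.

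Tmem119 and Olfml3 were intermediate. Tmem119, a membrane protein of microglia that osteoblasts also express, was at 4.575 to 14.8 CPM in the brain and 20.3 to 64.7 CPM in the tumours. Olfml3, a secreted matrix protein, was at 5.11 to 11.8 CPM and 37.3 to 139.6 CPM. Both genes were higher in every tumour than in every brain library.

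Mrc1, the mannose receptor of border and tissue macrophages, was at 24.7 ± 4.29 CPM in brain controls and 267.5 ± 46.3 CPM in tumour controls (10.8-fold). Ms4a7, a membrane protein of border macrophages, was at 2.38 ± 1.32 CPM and 30.2 ± 6.04 CPM (12.7-fold). Cd163, the scavenger receptor for haemoglobin bound to haptoglobin, was at most 0.349 CPM in the brain and at 11.7 to 113 CPM in the tumours. Of the 3 border or tissue genes, Mrc1 was the one with a clear level in brain libraries.

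Within a library, each microglia and border gene was also divided by Csf1r, which lets libraries with different amounts of macrophage RNA be set side by side. The ratio of Mrc1 to Csf1r was 0.208 to 0.776 (median 0.431) in the brain and 0.517 to 1.76 (median 0.719) in the tumours, so the ranges overlapped although the CPM did not. With Spi1 in place of Csf1r, the ratio of Mrc1 was 0.268 to 0.538 in the brain and 1.49 to 5.32 in the tumours, with no overlap, so the overlap holds for Csf1r only. The ratio of Cx3cr1 to Csf1r was 0 to 0.0224 in the brain and 0.311 to 0.617 in the tumours, with no overlap. The ratio of Sall1 to Csf1r was 0.313 to 1.26 in the brain and at most 0.000537 in the tumours. For Tmem119 the median ratio was higher in the brain, at 0.210 against 0.124, but with Spi1 in place of Csf1r it was higher in the tumours.

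In the brain clonogenic assay, macrophage genes were lower in IR libraries than in controls. Of the 34 members, 25 passed the filter on low counts and 18 were lower at an adjusted p of 0.05 in edgeR's quasi-likelihood test with Benjamini-Hochberg adjustment, against 5.27% of all 12924 genes called lower. None was higher, against 6.45% of all genes called higher. The median log2 fold change of the 25 tested members was -1.37, against 0.00 for all genes tested. Of the 25, 22 reached 3 CPM in at least 3 of the IR libraries themselves, and 15 of these 22 were lower. C1qc, Ly86 and Ms4a7 passed the filter through control and IS libraries, where they were higher, so their calls support nothing.

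Csf1r measured 86.6, 60.7, 43.2, 48.9 and 54.6 CPM in controls 1 to 5, 30.4, 20.05, 41.4, 66.5 and 74.4 CPM in IS 1 to 5, and 17.7, 27.1, 14.4, 24.5 and 13.4 CPM in IR 1 to 5. All IR libraries lay below all controls, IS 1, IS 2 and IS 3 lay below the controls too, and IS 4 and IS 5 were among the highest. The fall in IR was 3.03-fold (log2 -1.60, SE 0.31, adjusted p = 0.00391). Spi1 measured 64.1, 59.6, 45.9, 58.6 and 67.8 CPM in controls, 39.5, 22.3, 64.3, 82.2 and 79.5 CPM in IS, and 16.2, 27.0, 7.85, 33.9 and 25.6 CPM in IR. Every IR library was below every control, and the fall was 2.70-fold (log2 -1.43, SE 0.34, adjusted p = 0.0133).

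**Figure D2:**
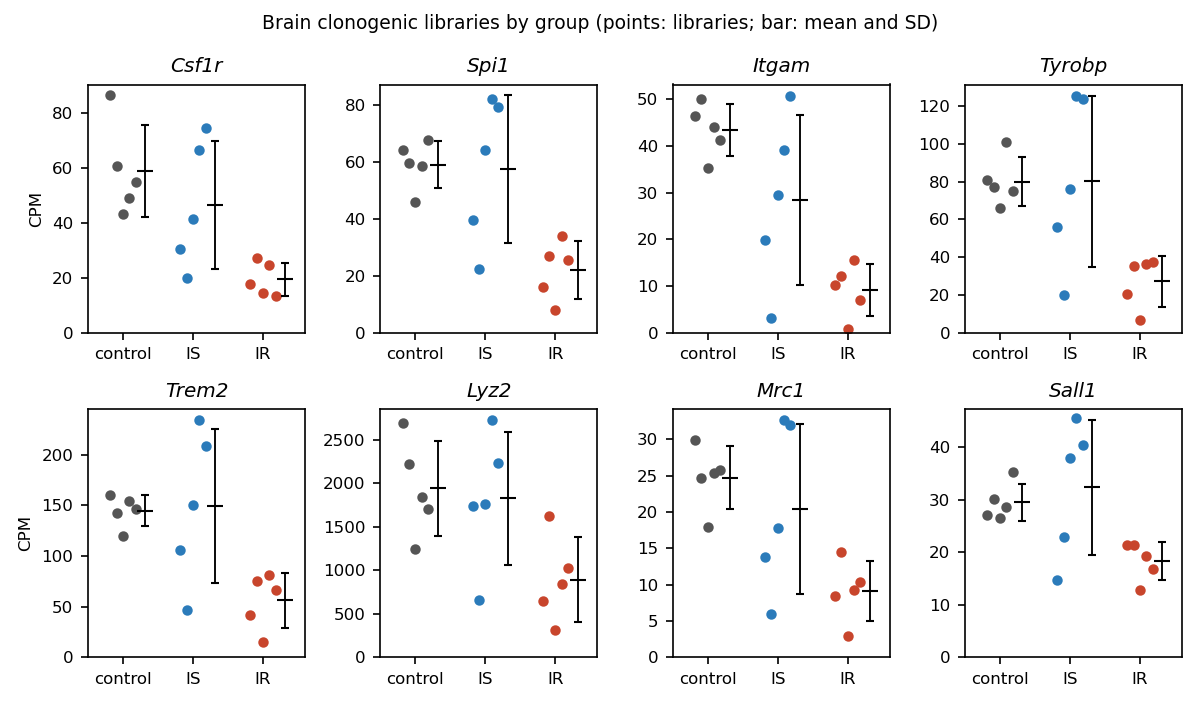
Level of 8 members in each brain clonogenic library (points) by group, in CPM, with the mean and SD of the 5 libraries of each group as bars. For the 7 members other than Lyz2 all IR points lie below all control points, and the IS points have a larger SD in CPM than the control points in all 8 panels, with IS 1 or IS 2 lowest and IS 4 or IS 5 highest among them.

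Surface and signalling genes of leukocytes fell with them. Itgam, the complement receptor alpha chain CD11b, measured 46.4, 50.1, 35.3, 44.1 and 41.4 CPM in controls, 19.8, 3.17, 29.4, 39.1 and 50.7 CPM in IS, and 10.1, 12.2, 0.776, 15.5 and 7.06 CPM in IR. It was lowest in IR 3, the groups IR and control did not overlap, and the fall was 4.79-fold (log2 -2.26, SE 0.54, adjusted p = 0.0133). Lat2, an adaptor of myeloid and B cells, fell 3.60-fold (log2 -1.85, SE 0.38, adjusted p = 0.00539). Ptprc, the phosphatase CD45 of all leukocytes, fell 2.47-fold (adjusted p = 0.0354), and Laptm5, a lysosomal protein of blood cells, 1.90-fold (adjusted p = 0.0392). The tetraspanin Cd53 had a log2 fold change of -0.65 and was not called (adjusted p = 0.0709).

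Among macrophage surface genes, Adgre1, the F4/80 antigen, measured 37.95, 32.8, 27.15, 37.05 and 38.9 CPM in controls, 20.45, 9.51, 36.1, 76.4 and 64.2 CPM in IS, and 12.01, 19.96, 2.715, 17.2 and 9.62 CPM in IR. It was below every control in all 5 IR libraries and fell 2.84-fold (log2 -1.50, SE 0.47, adjusted p = 0.0488). Ly86, which passed the filter through control and IS libraries, had a log2 fold change of -1.55. Cd68 was also lower in all 5 IR libraries than in any control, at 72.7 to 253 CPM against 302 to 426 CPM, but missed the threshold (log2 -1.07, adjusted p = 0.0526).

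Of the 5 genes for ITAM adaptors and their receptors, 4 fell and 1, Fcgr1, was not tested. Tyrobp measured 81.0, 77.1, 65.9, 101 and 75.2 CPM in controls, 55.8, 19.8, 75.8, 125 and 124 CPM in IS, and 20.3, 35.2, 6.69, 36.4 and 37.4 CPM in IR. Again IR 3 was lowest and no IR library reached a control, with a fall of 2.95-fold (log2 -1.56, SE 0.42, adjusted p = 0.0257). Trem2, its partner receptor, measured 160.1, 142, 119.8, 154 and 147 CPM in controls, 106, 47.1, 150.1, 234 and 208 CPM in IS, and 42.2, 75.4, 15.5, 81.1 and 66.5 CPM in IR, without overlap of IR and control (2.58-fold lower, log2 -1.37, SE 0.38, adjusted p = 0.0302). The antibody receptor Fcgr3 fell 2.47-fold (adjusted p = 0.0310) and Fcer1g 2.08-fold (adjusted p = 0.0418). Fcgr1 lay under the filter, at 0 to 2.87 CPM in the 15 libraries.

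The pattern recognition receptor Clec7a, which binds fungal beta-glucan, measured 30.4, 25.7, 20.01, 21.3 and 22.4 CPM in controls, 12.3, 4.66, 22.2, 35.9 and 35.6 CPM in IS, and 5.86, 9.93, 1.26, 8.84 and 5.88 CPM in IR. Its IR and control libraries did not overlap, and the fall was 3.79-fold (log2 -1.92, SE 0.47, adjusted p = 0.0146). Cd14 fell 2.10-fold (adjusted p = 0.0274). Cybb, the catalytic chain of the phagocyte oxidase, fell 3.13-fold (adjusted p = 0.0446) although IR 2, at 19.7 CPM, lay above controls 3 and 5. Its cytosolic partner Ncf1 had a log2 fold change of -1.13 and was not called (adjusted p = 0.126). Lyz2 measured 2689, 2223, 1245, 1845 and 1698 CPM in controls and 645.9, 1625, 315.7, 837.8 and 1031 CPM in IR. IR 2 lay above control 3, and the log2 fold change of -1.12 missed the threshold (adjusted p = 0.0596).

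C1qc was the one complement chain that passed the filter in the brain. It measured 1.03, 3.61, 1.28, 2.54 and 4.75 CPM in controls, 1.63, 0.840, 2.05, 3.40 and 2.34 CPM in IS, and 0.378, 0.405, 0.291, 0.918 and 0.855 CPM in IR. Only control 2, control 5 and IS 4 carried it past the filter, and all IR libraries lay below all controls at levels where a library holds few counts, so its fold change and p are not given.

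Of the 3 microglia genes that could be tested in the brain, none was called. Sall1 measured 27.1, 30.1, 26.5, 28.7 and 35.4 CPM in controls, 14.8, 22.9, 38.1, 45.6 and 40.4 CPM in IS, and 21.4, 21.4, 12.9, 19.3 and 16.8 CPM in IR. All IR libraries were below all controls, but the log2 fold change of -0.69 (SE 0.24) missed the threshold (adjusted p = 0.0694). Tmem119 measured 7.425, 8.61, 6.39, 10.3 and 8.01 CPM in controls and 10.2, 10.1, 7.85, 6.315 and 11.98 CPM in IR, with overlap and a log2 fold change of 0.19 (SE 0.26, adjusted p = 0.698). Olfml3 had a log2 fold change of -0.40 (SE 0.19, adjusted p = 0.207).

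Divided by Csf1r, Sall1 was at 0.313 to 0.647 in controls and 0.789 to 1.26 in IR, and Tmem119 at 0.0857 to 0.210 and 0.258 to 0.896, each without overlap. Mrc1 divided by Csf1r was at 0.345 to 0.519 in controls and 0.208 to 0.776 in IR, so it overlapped. With Spi1 in place of Csf1r, Sall1 was at 0.423 to 0.578 in controls and 0.5695 to 1.64 in IR, with IR 4 just under control 3, and Tmem119 at 0.116 to 0.175 and 0.186 to 1.00, without overlap. Csf1r and Spi1 themselves fell in IR, by 3.03-fold and 2.70-fold, so a gene that fell less has a higher ratio there. These ratios are given as values with no test, and no share over all genes was computed.

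Of the border or tissue genes, Mrc1 measured 29.9, 24.7, 17.99, 25.3 and 25.8 CPM in controls, 13.8, 5.97, 17.8, 32.7 and 32.04 CPM in IS, and 8.51, 14.5, 3.005, 9.30 and 10.4 CPM in IR. All IR libraries were below all controls, with a fall of 2.71-fold (log2 -1.44, SE 0.39, adjusted p = 0.0248). Ms4a7 had a log2 fold change of -1.44 (SE 0.46) with overlap of IR 2 and the controls, and also passed the filter through control and IS libraries. Cd163 was under the filter in all 3 groups.

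**Figure D3:**
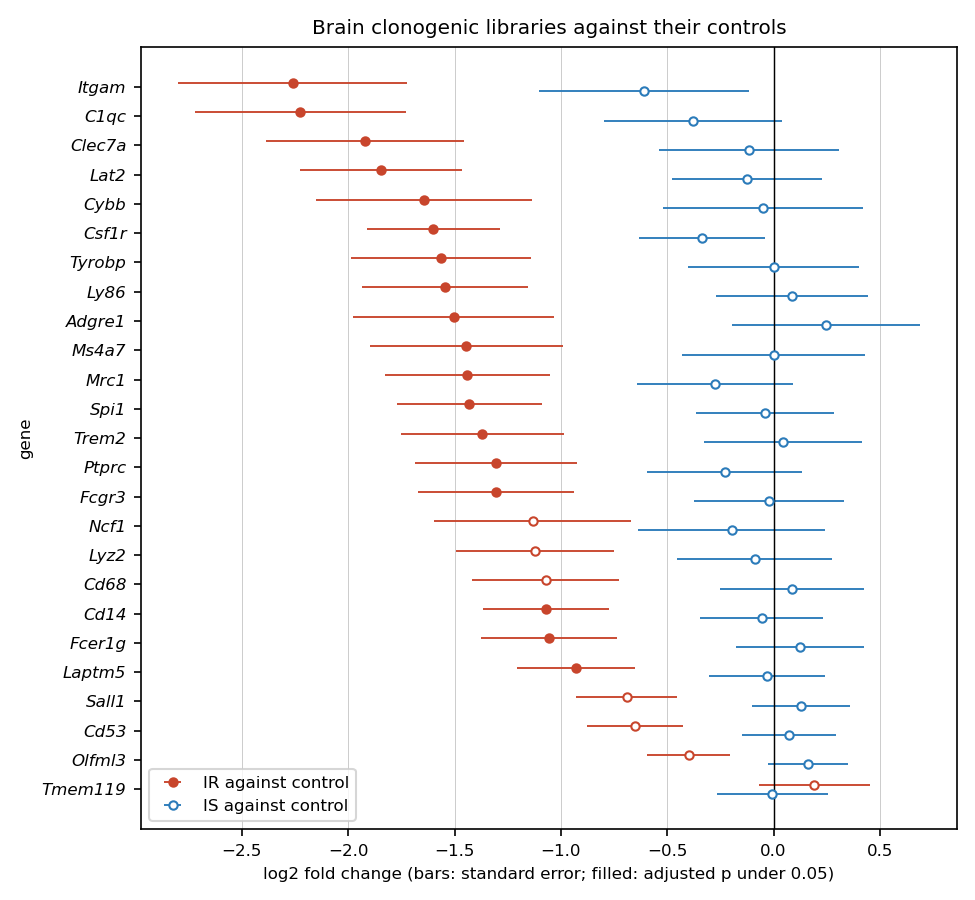
Log2 fold changes with standard errors of the 25 tested members in brain IR (red) and brain IS (blue) libraries, each against the same 5 control libraries, with filled points at an adjusted p under 0.05. In IR, 24 of the 25 lie below 0 and 18 are filled, and in IS the points lie around 0 and none is filled.

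In 18 of the 25 tested members every IR library lay below every control, against 5.97% of all genes tested. C1qc and Ly86 are among these 18 and passed the filter through control and IS libraries, where they were higher. The count of 18 called members depended on single libraries. It was 10 without control 1, 8 without control 2, 7 without control 4, 9 without control 5, 7 without IR 1 and 8 without IR 3. The share of all genes called lower fell in the same fits, to 3.26%, 2.89%, 2.66%, 3.2%, 3.11% and 2.41%. Csf1r, Lat2, Spi1, Itgam and Clec7a were called under all 17 alternatives tried.

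In IS libraries no member was called against the same controls by edgeR or by DESeq2, and none had an unadjusted p under 0.05, where edgeR called 6.46% of all genes and 21.7% had such a p. The median log2 fold change was -0.03. The member with the smallest p was Itgam, at a log2 fold change of -0.61 (SE 0.49, adjusted p = 0.520), followed by Csf1r (-0.34, SE 0.30, adjusted p = 0.566) and C1qc (-0.38, SE 0.42, adjusted p = 0.666). The summed level of the members was 1311 to 5159 CPM in IS, 2531 to 4478 CPM in controls and 644 to 2665 CPM in IR. This sum spanned the widest range in CPM in IS, but as a ratio of highest to lowest it was at least as spread in IR. Single members differed in this ratio. It was larger in IS for Csf1r, at 20.05 to 74.4 CPM in IS and 13.4 to 27.1 CPM in IR. For Itgam it was larger in IR, at 3.17 to 50.7 CPM in IS and 0.776 to 15.5 CPM in IR.

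Compared directly, no member was called between IR and IS by edgeR, which called 0.0464% of all genes. There were 23 members with an unadjusted p under 0.05, against 18.1% of all genes, and DESeq2 called 13 members, against 4.67% of all genes. The smallest p belonged to Lat2, 3.30-fold lower in IR (log2 -1.72, SE 0.38, adjusted p = 0.0682 in edgeR). Ly86 (log2 -1.63), Spi1 (log2 -1.39), Csf1r (log2 -1.26) and Clec7a (log2 -1.81) followed, with adjusted p of 0.0717 to 0.0774. C1qc, Ly86 and Ms4a7, among the 23, passed the filter through control and IS libraries, where they were higher. Their values, and their part in the counts of this comparison, support nothing. Without IS 2, the IS library with the lowest Itgam, edgeR called 23 members lower, against 4.64% of all genes. Without IS 1 it called 6 lower, against 1.16%, and without IR 4 it called 2 lower, against 0.326%.

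Other macrophage genes, from companion lists, moved in the brain IR libraries as follows. For the counts in this and the following lists, 5.27% of all genes tested were called lower and 6.45% higher. Of 10 transcription factors of macrophages 6 were lower and none higher, among them Irf5 (2.66-fold), Runx1 (1.59-fold), Cebpa (2.08-fold), Irf8 (2.12-fold) and Ikzf1 (2.56-fold). Of 5 tested genes for growth factors and their receptors 3 were lower, namely Csf1, the ligand of Csf1r, at 1.51-fold (SE 0.18, adjusted p = 0.0466), and the chains Csf2ra (1.88-fold) and Csf2rb (2.16-fold) of the receptor for GM-CSF. Il34, the other ligand of Csf1r, had a log2 fold change of -0.21 (adjusted p = 0.521). Both lists also hold genes that 4T1 cells express. Untreated 4T1 cultures summed to 232 to 253 CPM for the transcription factors and 435 to 461 CPM for the growth factor genes. In the libraries titled scramble, Runx1 averaged 110 CPM and Csf1 549 CPM, while Ikzf1 was at 0. Of 5 tested further microglia genes 3 were lower, among them the sialic acid receptor Cd33 (2.68-fold) and Bhlhe41 (1.73-fold), and of 4 further border macrophage genes 2, Maf (1.26-fold) and Ccr1 (2.81-fold). Folr2 and Stab1, the other tested border genes, were not called lower. Stab1 had a log2 fold change of 0.71 in IS against control and -0.03 in IR against IS.

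The genes of a list for lipid-laden and disease-associated macrophages divided. This list is not particular to macrophages here. Its 10 genes summed to 2596 to 2613 CPM in untreated 4T1 cultures and 8522 to 11410 CPM in brain controls. In the libraries titled scramble, Spp1 averaged 276 CPM and Fabp5 232 CPM, while Itgax averaged 0.139 CPM and Lpl was at 0. Itgax (3.89-fold), the lipase Lpl (2.50-fold) and the fatty acid carrier Fabp5 (1.69-fold) were lower in IR, Apoe was 1.39-fold higher, and 5 more tested genes, Gpnmb (log2 -0.18) and Spp1 (log2 -0.15) among them, were not called. Apoe was higher in IS too, 1.71-fold (log2 0.78, SE 0.13, adjusted p = 0.00230), the single gene of these macrophage lists called in IS. Mmp12, the elastase of macrophages, was at 2550.0 ± 402 CPM in controls, 2158 ± 1179 CPM in IS and 817.5 ± 406.5 CPM in IR (n = 5 each), a fall of 3.12-fold (adjusted p = 0.0212). The osteoclast genes Atp6v0d2 (2.74-fold) and Ctsk (1.53-fold) were lower as well.

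Markers of other cell types moved in the same libraries. All 5 endothelial genes were higher in IR, with a median log2 fold change of 2.59, and their summed level was 79.6 to 112 CPM in controls, 98.5 to 539.9 CPM in IS and 325 to 691 CPM in IR. Within IS it was 252.6 CPM in IS 1 and 539.9 CPM in IS 2, where macrophage genes were low, and 207.8, 159.6 and 98.5 CPM in IS 3 to 5. None of the 5 was at 0. The mast cell list rested on Kit, which also marks progenitor and interstitial cells and was at 0 to 3.26 CPM in controls, 2.34 to 11.2 CPM in IS and 4.85 to 21.7 CPM in IR. The B cell sum was at most 0.407 CPM and that of T and NK cells at most 0.709 CPM in all 15 libraries, and no epithelial gene was called in IR. The part of these cell types in the fall of the macrophage genes was not tested.

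In primary tumours no member was called between IR and control by edgeR, and none of all 12962 genes was (0%). Of 33 tested members 5 had an unadjusted p under 0.05, against 7.65% of all genes. DESeq2 called 2 members, Mrc1 (adjusted p = 0.0169) and Cd163 (adjusted p = 0.0217), against 0.957% of all genes. The summed level of the members overlapped, at 4203 to 6197 CPM in controls and 4309 to 5858 CPM in IR.

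The 2 members with the smallest p were border or tissue genes. Mrc1 measured 272, 218, 252 and 328 CPM in controls 1 to 4 and 200.1, 169, 162, 102 and 116 CPM in IR 1 to 5. It was the one member in which all IR tumours lay below all controls, against 1.26% of all genes tested, with a log2 fold change of -0.84 (SE 0.20, adjusted p = 0.436 in edgeR). Cd163 measured 62.2, 45.8, 42.8 and 113 CPM in controls and 13.4, 43.0, 25.1, 11.7 and 23.2 CPM in IR, and IR 2 lay just above control 3 (log2 -1.50, SE 0.41, adjusted p = 0.466). Ms4a7 had a log2 fold change of -0.47 (SE 0.21, adjusted p = 0.655).

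**Figure D4:**
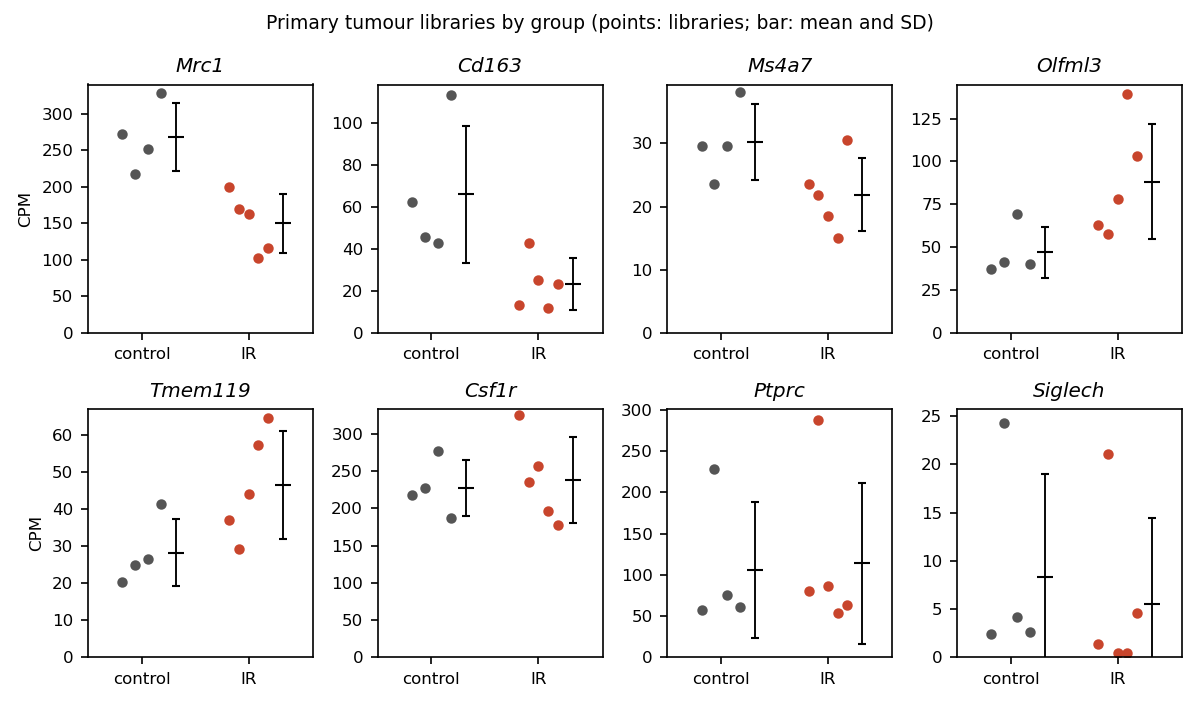
Level of 8 members in each primary tumour (points) by group, in CPM, with mean and SD as bars (4 controls, 5 IR). Mrc1 is the one member whose groups do not overlap, Olfml3 and Tmem119 have the higher means in IR with overlap, and control 2 and IR 2 stand apart for Ptprc and Siglech.

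Olfml3 and Tmem119 had the opposite sign. Olfml3 measured 37.3, 41.4, 69.1 and 40.0 CPM in controls and 62.7, 57.6, 78.0, 139.6 and 103 CPM in IR, with control 3 inside the IR range (log2 0.91, SE 0.29, adjusted p = 0.516). Tmem119 measured 20.3, 24.8, 26.6 and 41.4 CPM in controls and 37.2, 29.2, 44.2, 57.4 and 64.7 CPM in IR, again with overlap (log2 0.72, SE 0.27, adjusted p = 0.582). The 7 genes of fibroblasts and pericytes summed to 2296 to 4465 CPM in controls and 4545 to 9343 CPM in IR, with the highest value in IR 4, where Olfml3 was highest too. All 7 were above 0 in both groups, and their part in the 2 genes was not tested.

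Some tumours held lymphocyte RNA. The B cell genes summed to 307 CPM in control 2, 398 CPM in IR 2 and 76.4 CPM in IR 5, and to at most 3.52 CPM in the other 6 tumours. The same tumours had the highest sums of T and NK cell genes, at 198, 215 and 56.4 CPM against at most 16.9 CPM elsewhere. Ptprc was at 229 CPM in control 2 and 287 CPM in IR 2 and at 53.5 to 86.5 CPM in the others, and Siglech, which plasmacytoid dendritic cells also carry, at 24.3 and 21.1 CPM against 0.417 to 4.55 CPM. Without control 2 and IR 2 the log2 fold change was -0.97 for Mrc1 and -1.99 for Cd163.

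In the 4T1 cultures 4 members were tested and none was called with IR or IS exosomes or between them, where edgeR called 13.6% of all genes for IR, 19.3% for IS and 6.27% for IR against IS. At an unadjusted p under 0.05 there were 2 members in IS, Cd68 (log2 0.58, SE 0.23, adjusted p = 0.0907) and Cd14 (log2 0.35, SE 0.14, adjusted p = 0.103), and none in the other comparisons. Over all 10888 genes tested, 3505 had such a p in IS, 2905 in IR and 2471 in IR against IS. Cd68 measured 1.92, 2.53 and 2.95 CPM in controls and 3.98, 3.17 and 3.88 CPM in IS, without overlap. No control reached the level of the filter, so Cd68 passed it through exosome libraries, where it was higher, and these values support nothing. Csf1r had a log2 fold change of -0.30 in IR (SE 0.14, adjusted p = 0.189) and -0.15 in IS (SE 0.14, adjusted p = 0.497).

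P2ry12 was too low for the filter in the cultures, with 4, 2 and 2 counts in controls, 6, 12 and 12 in IR and 21, 12 and 18 in IS. In CPM this was 0.179 to 0.4045 in controls, 0.589 to 1.10 in IR and 1.40 to 1.71 in IS, without overlap of the 3 groups, and no test is given at so few counts. It shares 9 exonic bases with Med12l on the other strand. Of the companion lists, the inducible nitric oxide synthase Nos2 was at 0 to 0.358 CPM in controls, 8.14 to 10.1 CPM in IR and 7.75 to 11.4 CPM in IS, and it passed the filter through the exosome groups. The factor Cebpb was 1.80-fold higher in IR and 1.71-fold higher in IS. Tyrobp and the C1q chains stood at or near 0 in the same cultures.

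In the miRNA experiment all 4 tested members were lower in the libraries titled miR-145a-3p than in those titled scramble, where 28.7% of all genes were called lower. Only Cd14 reached 3 CPM in 3 libraries titled miR-145a-3p. The other tested members passed the filter with help from the libraries titled scramble, where they were higher, so their calls support nothing. Cd68 measured 6.53 and 6.90 CPM in the libraries titled scramble and 3.06, 2.45 and 2.92 CPM in those titled miR-145a-3p, without overlap (2.40-fold lower, log2 -1.26, SE 0.16, adjusted p = 0.000527). Lat2 was 1.72-fold lower (adjusted p = 0.00665), Csf1r 1.49-fold (adjusted p = 0.0312) and Cd14 1.28-fold (adjusted p = 0.0406). DESeq2 called 2 of the 4, against 55.3% of all genes. Of 11 alternatives tried, only 2 kept the call of Cd14 and 4 that of Csf1r, while all 11 kept those of Cd68 and Lat2. Olfml3 was at 3.16 and 4.29 CPM against 0.155, 0 and 0.461 CPM and could not pass a filter that asks for 3 libraries. Since library names and titles disagree, the direction holds for the titles only.

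Some members share exonic bases with another gene in the GENCODE M21 annotation, and no source used here says whether counting used the strand of the stranded kit. The overlap was 952 bases of Lat2 with Rfc2, 873 bases of Csf1r with Hmgxb3 and 193 bases of Ncf1 with Gtf2ird2, each on the opposite strand, and 210 bases of Itgam with Gm49368 on the same strand. Lat2 and Csf1r are among the 4 members that passed the filter in 4T1 cultures, where reads of the overlapping gene cannot be told apart from their own. The same limit holds in the brain libraries. Csf1r was at 7.89 to 11.8 CPM in the cultures and 13.4 to 27.1 CPM in brain IR. Lat2 was at 2.41 to 4.06 CPM in the cultures and 2.52 to 13.7 CPM in brain IR. The part of such reads in their falls and in the ratios to Csf1r was not tested.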

How the data were processed

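RNA from 38 samples was measured in 4 experiments, each with its own deposited table. The authors' deposited values were expected counts, from RSEM in the culture and brain tables and from salmon in the tumour and miRNA tables, per the file names and headers. Per the submitters' processing notes, the tools also included STAR, Trimmomatic, DESeq2 and featureCounts, and the builds were GRCm38 (mm10) and GRCm39 (mm39). No source used here ties a build to a table. A set of 3 culture columns fitted no sample's labels and was left out.

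Groups came from the sample titles. The IR columns of the culture and brain tables were taken as replicates of their group and numbered by column name, since such names also spell tumour libraries. Identifiers were named through the symbols of the tumour table, which named 52139 of 55487 genes in the culture and brain tables. After rounding, a gene was kept if 3 or more libraries of its table reached 3 CPM (10888, 12924, 12962 and 10751 in the culture, brain, tumour and miRNA tables). Each table was fitted on its own with all its groups. edgeR 4.0.16 (R 4.3.3, TMM scaling) gave quasi-likelihood tests, adjusted by Benjamini-Hochberg over all genes tested, with a threshold of 0.05. The biological coefficient of variation was 0.0576, 0.159, 0.326 and 0.0819 in the same order. For CPM, library size was the scaling factor times the counts summed over tested genes. SEs of log2 fold changes were derived from the F statistic (absolute change over its root). The scripts were tested on simulated counts.

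The members and lists were chosen with earlier results of these data known. Named were all 34 members with their levels, fold changes for members called and, where under 5 were called, up to 5 tested members with the smallest p. From companion lists, called genes (up to 4 by smallest adjusted p) and the 2 with the highest mean were to be named. Some called genes of these lists are not reported here by name. Where 5 genes of a list are named, and for Il34 and Csf1, names outside this rule were chosen after their values were seen. Alternatives were DESeq2 1.42.0, other scalings and filters, a replicate block, fits of 2 groups only and leaving out each library in turn. The fit without the tumours with the most lymphocyte RNA was added after seeing the data.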

Additional observations from a re-analysis of the deposited data

Results flagged for a closer look

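Each gene's level was checked for a library far from the others of its group in the brain and tumour groups of 4 or 5 libraries. Of 141 such checks 8 found one, and chance alone gives about 1 in 20.

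In the tumours, 5 of the 8 concerned the libraries with the highest B cell sums. Ptprc was at 228.7 CPM in control 2, against 57.9 to 75.1 CPM in the other controls, and at 287.1 CPM in IR 2, against 53.5 to 86.5 CPM in the other IR tumours. Siglech was at 24.34 CPM in control 2, against 2.40 to 4.15 CPM, and at 21.13 CPM in IR 2, against 0.417 to 4.55 CPM. Cd53, a tetraspanin that lymphocytes also express, was at 112.9 CPM in IR 2, against 49.4 to 65.3 CPM. Olfml3 was at 69.07 CPM in tumour control 3, against 37.3 to 41.4 CPM.

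In the brain controls, Cd68 was at 301.7 CPM in control 3, against 390.1 to 425.8 CPM in the others. Fcer1g was at 12.99 CPM in control 1, against 11.2 to 11.6 CPM.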

How the results depend on the processing

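Without single libraries, members called in brain IR against control ranged from 7 to 21 (18 with all libraries), and under the other alternatives from 14 (replicate block) to 22 (DESeq2), all lower. In brain IR against IS, where edgeR called 0, DESeq2 called 13 members, a fit with no filter on low counts 14, and fits without single libraries 0 to 23. The replicate block called 0 there, 0 in brain IS, 0 in tumours and 0 in the cultures. In tumours DESeq2 called 2 members and all other fits 0. In the miRNA experiment, where 4 were called, DESeq2, the filter at 1 CPM and the replicate block called 2 each, and fits without single libraries 2 to 3. In the cultures no filter and the filter at 1 CPM gave 1 called member (P2ry12 at 1 CPM, which the exosome libraries alone carried past that filter) in IR and 1 in IS, against 0. The cause of these shifts was not tested.

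Over all genes, brain IR against control called 1514, 836 without IR 3, 956 without control 2 and 898 without control 4. Brain IR against IS called 6, DESeq2 604, no filter 334, and 1139 without IS 2, 200 without IS 1 and 145 without IR 4. Brain IS against control called 835, and 465 to 872 without single libraries. Tumours called 0, and DESeq2 124. The miRNA experiment called 6093, and 3990 with the replicate block. Culture IR against IS called 683, and 295 to 871 without single libraries.

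In culture IS, the log2 fold change of Lat2 (0.00) was -0.00367 with the filter at 1 CPM and -0.17 to 0.22 without single libraries, with -0.15 without control 3, -0.17 without IS 1 and -0.06 without IS 2. That of Cd14 in culture IR against IS (-0.08) was 0.018 without IR 1. The summed level of the members in the libraries titled scramble was 31.93 CPM relative to the total count, against 33.8 CPM. With Spi1 in place of Csf1r, log2 ratios of tumour over brain were 3.03 for P2ry12, 1.58 for Tmem119 (negative with Csf1r), 2.47 for Olfml3, 7.51 for Cx3cr1, 2.91 for Mrc1 and 3.20 for Ms4a7.

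Libraries with the same number did not deviate together throughout. The correlations were -0.21 to 0.12 in cultures, -0.19 to 0.23 in brain, 0.08 to 0.76 in tumours and -0.14 to -0.06 in the miRNA experiment. In tumours 3 of 8 libraries correlated best with their own number, in the brain 3 of 15 and in the cultures 3 of 9.

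Depth limits the low members most: Siglech, Gpr34, Cd163, Aif1 and C1qb had few counts in brain libraries, and counting error there is large.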
